A study of Homo sapiens with 12 samples.

Results

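LIN28B, IGF2BP2, IGF2BP3 and HMGA2 are 4 genes of the oncofetal network that the let-7 microRNAs hold in check. Their 7 regions, of 9958 peak regions in all, were the rows whose GRCh38 coordinates overlap the RefSeq body of 1 of the 4 genes, out of 5498 genes named by overlap. LIN28B and IGF2BP3 have 1 region each, IGF2BP2 has 2 and HMGA2 has 3, and the overlapping regions fall into 5 separate places. The genes were selected on their reads in METTL1 knockdown against control, because LIN28B and IGF2BP3 were lower and HMGA2 was higher in knockdown, so the knockdown against control values of the members are given below as a description, with no test. The same 12 libraries give immunoprecipitate against input within each condition. For LIN28B, IGF2BP3 and HMGA2 that comparison divides by the input reads the choice used, so it too is given as a description. IGF2BP2 was not picked for a difference, and its comparison is tested. All regions are, however, peaks that the authors called for immunoprecipitate over input in KD or NC. That call favours a higher immunoprecipitate in the condition a peak is named for, so the test is not independent evidence of enrichment.

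LIN28B is an RNA-binding protein that binds let-7 precursors and blocks their maturation. Mature let-7 in turn represses the mRNAs of LIN28B, HMGA2 and the IGF2BP genes, so that LIN28B and let-7 form a double-negative loop. IGF2BP2 and IGF2BP3 bind and stabilise mRNAs, and IGF2BP2 transcription is known to be driven by HMGA2, an architectural chromatin protein with AT-hooks that bind the minor groove of DNA. LIN28B, IGF2BP3 and HMGA2 are largely silent in adult tissue and return in many cancers, whereas IGF2BP2 stays expressed more widely.

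The microRNAs that join the 4 genes were not measured in these libraries. Their RefSeq mature sequences (GRCh38.p14) are shown because the whole family reads its targets through 1 seed, bases 2 to 8 from the 5′ end, set in capitals here.
let-7a-5p: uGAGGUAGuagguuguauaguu
let-7b-5p: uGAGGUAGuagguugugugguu
let-7c-5p: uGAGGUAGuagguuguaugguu
let-7d-5p: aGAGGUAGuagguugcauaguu
let-7e-5p: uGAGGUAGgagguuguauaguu
let-7f-5p: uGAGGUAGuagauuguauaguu
let-7g-5p: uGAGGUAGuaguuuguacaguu
let-7i-5p: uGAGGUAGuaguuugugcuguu
miR-98-5p: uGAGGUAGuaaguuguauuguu
The 9 names come from 12 loci. Of 2545 mature entries in the RefSeq table, 11 distinct names carry this seed, the other two being miR-4458 and miR-4500.

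The cells were THP-1, a human monocytic leukaemia line, made adherent with PMA, a phorbol ester, at 100 ng/ml for 48 hours. KD libraries came from derivatives carrying the hairpin shMETTL1, against the catalytic subunit of the enzyme that writes internal 7-methylguanosine (m7G). NC libraries were the control, which the design calls wild type, and all groups share the line, the PMA and the selection of polyadenylated RNA. Fragments pulled down in the m7G meRIP are IP, and IN was taken as the matching input, which gave 3 libraries in each of KD IP, KD IN, NC IP and NC IN. The labels state neither the number of hairpins or clones nor whether the replicates were separate cultures, so the p-values measure the spread between these libraries, which may be technical.

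Reads in peak regions came to 1476384 to 1888972 in the 6 IP libraries and 907024 to 1105477 in the 6 IN libraries, which is not the sequencing depth. No region overlapped METTL1, so the knockdown of the targeted gene was not checked here. Levels are given as CPM, reads scaled to a common library size. The libraries differed in marker genes. Of 20 genes listed as markers of HEK293, a human embryonic kidney line, 14 had a peak, and their summed level was 3393 to 3538 CPM in KD IN and 14830 to 15530 CPM in NC IN, with KRT18 at 0 in KD IN. The 4 genes of smallest p, NEFM, DSP, BEX2 and NEFL, had 1, 3, 3 and 6 reads in KD IN against 5647, 1363, 935 and 1645 in NC IN. IRS4, HOXC8 and HOXC9, named after their values were seen, showed the same pattern, with 0.34, 0.64 and 0.34 CPM in KD IN against 75.4, 157.6 and 40.4 CPM in NC IN. The KD IN sum was carried by MAP1B (1720 CPM in KD IN, 2247 in NC IN), TCEAL9 (1423 and 3248) and NEFH (296.4 and 136.8), also named after their values were seen. The other listed genes with a peak, ZIC2 (13.0 and 7.9), TSPYL5 (20.1 and 10.2) and INA (1.04 and 0.84), were not lower in KD IN. The 38 macrophage markers, 14 of them with a peak, summed to 2618 to 2825 CPM in KD IN and 1424 to 1583 CPM in NC IN, and none of the 14 was at 0 in either. LAPTM5 (log2 0.97 ± 0.12, edgeR adjusted p = 7.4e-07), MMP9 (1.20 ± 0.18, 6.3e-06), ITGB2 (1.06 ± 0.16, 1.1e-05) and CYBA (1.12 ± 0.18, 2.2e-05) were the macrophage genes of smallest p. The labels call all libraries THP-1, and whether the KD and NC libraries hold the same cells was not tested, so each KD against NC value below is a difference between these libraries and not shown to follow from METTL1. In these bulk samples fewer cells of a type and less RNA per cell cannot be told apart, and the part of these marker differences in the results below was not tested.

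**Figure D1:**
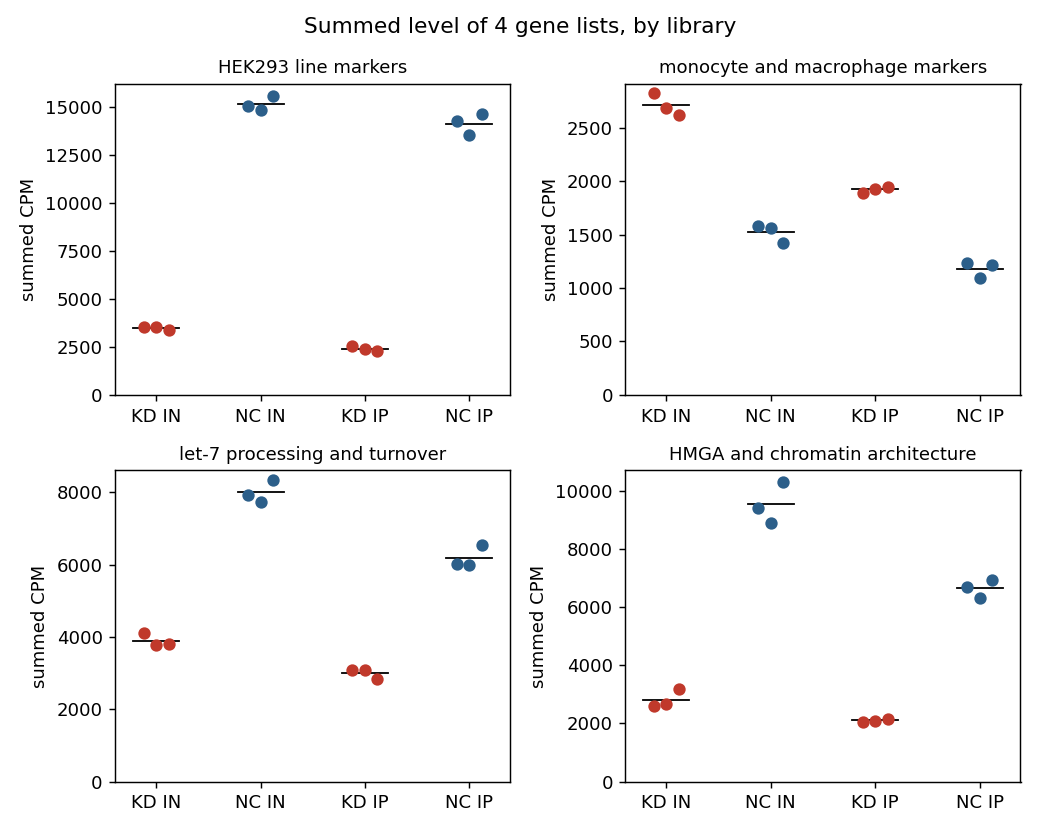
Summed CPM of each gene list in each library (points) with the group mean (line). HEK293 marker genes sit at 3393 to 3538 CPM in KD IN and at 14830 to 15530 CPM in NC IN, and macrophage markers at 2618 to 2825 CPM in KD IN and 1424 to 1583 CPM in NC IN.

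The regions lie at different ends of their genes. The LIN28B region covers chr6:104958164-104958284, 121 bases on the plus strand, at 14.49% of the gene body and 1057 bases from the nearest listed transcript start. The 2 IGF2BP2 regions, chr3:185824831-185825042 (named for KD) and chr3:185824861-185825042 (named for NC), are on the minus strand and end exactly at a listed start. The IGF2BP3 region, chr7:23312118-23312328 on the minus strand, lies at 98.74% of the gene body, 1909 bases from its 3′ end. HMGA2 has a pair of 5′ regions, chr12:65824669-65824969 (KD) and chr12:65824699-65825029 (NC), starting 209 and 239 bases after the start of the gene body, and a 3′ region, chr12:65957705-65957886, at 94.01%. The reference gave no exons, so coding and untranslated parts were not separated. Both 5′ regions of HMGA2 also overlap RPSAP52, a transcribed pseudogene, and whether counting used strand was not given in the sources used here, so reads of the 2 genes cannot be told apart there.

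**Figure D2:**
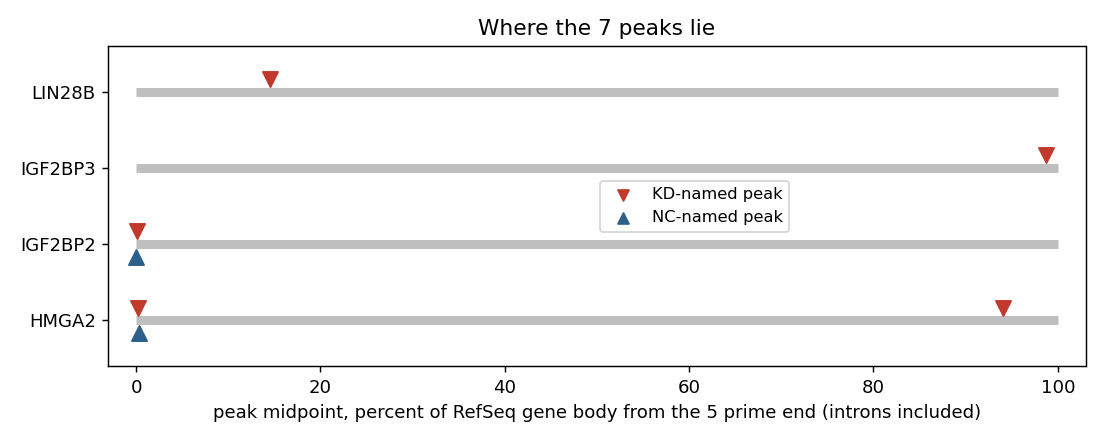
Midpoint of each member region as a percentage of its gene body, from the 5′ to the 3′ end. The IGF2BP2 regions and 2 of the HMGA2 regions sit at the 5′ end, LIN28B at 14.49%, the third HMGA2 region at 94.01% and IGF2BP3 at 98.74%.

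The IGF2BP2 regions begin where the promoter ends, so the 250 bases before that start are shown, from RefSeq (GRCh38.p14, chr3:185825043-185825292, minus strand), with GGGCGG, the GC box, in capitals on either strand.
IGF2BP2 promoter: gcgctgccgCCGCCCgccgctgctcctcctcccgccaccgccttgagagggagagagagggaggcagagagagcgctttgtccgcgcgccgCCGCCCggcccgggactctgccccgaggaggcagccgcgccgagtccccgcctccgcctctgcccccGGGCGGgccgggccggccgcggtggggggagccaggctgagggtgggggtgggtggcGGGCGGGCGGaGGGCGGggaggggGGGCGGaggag
The window was 81.6% G and C, above 98.0% of the promoter windows, whose median was 58.0%, and held 7 matches on both strands together, some of them overlapping. GGGCGG was found on either strand in 42.6% of 35116 windows, so a match is common.

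LIN28B was read in NC and almost absent in KD. Its region had 0 reads in each KD IN library, against 44, 84 and 63 reads in the NC IN libraries. In IP it had 4, 1 and 0 reads in KD, against 29, 20 and 40 in NC. No KD library reached the lowest NC library in either kind. NC IN averaged 75.01 ± 30.08 CPM (SD, n = 3), while KD IN lies at least 71.9-fold lower when its 0 reads are set at a floor of 3 reads over the group. In IP the level was 0.88 ± 1.12 CPM in KD and 17.7 ± 6.66 CPM in NC, by reads 19.2-fold lower in KD (95% counting interval 7.95 to 60.7). Without KD IP replicate 1, which holds 4 of the 5 reads, the fitted log2 difference was -5.58 in place of -4.15. The intervals and the floor allow for counting error alone, and not for duplicated reads.

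IGF2BP3, the paralogue that is normally fetal, followed the same direction. It had 1, 0 and 0 reads in KD IN, against 27, 31 and 29 in NC IN. In IP it had 1, 0 and 7 reads in KD, against 9, 7 and 8 in NC. The KD and NC libraries did not overlap in IN, and in IP they did not overlap in CPM (0 to 4.35 in KD, 4.36 to 5.04 in NC), with KD IP replicate 3 just under NC IP replicate 2. By reads IN was 98.3-fold lower in KD (17.2 to 3927), an estimate that rests on 1 read, and IP was 3.24-fold lower (1.41 to 8.35). Without KD IP replicate 3 the fitted IP difference was -3.77 on the log2 scale in place of -1.59, and without KD IP replicate 2 it was -0.98. Without KD IN replicate 1 the fitted IN difference was -8.50 in place of -6.29.

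HMGA2 moved the other way. Its 5′ region named for NC had 11, 11 and 20 reads in KD IN, against 6, 1 and 0 in NC IN, with no overlap. In IP it had 87, 70 and 60 reads in KD, against 40, 42 and 30 in NC, again with no overlap. Levels were 14.5 ± 6.31 CPM in KD IN and 2.52 ± 3.33 CPM in NC IN, and 39.5 ± 6.1 CPM in KD IP and 22.1 ± 3.71 CPM in NC IP (SD, n = 3 each). The fitted difference was 5.26-fold in IN (log2 2.39 ± 0.66, SE) and 1.79-fold in IP (0.84 ± 0.39). Replicate 1 gave 6 of the 7 NC IN reads, and without it the IN difference was 4.42 on the log2 scale. The 3′ region of HMGA2 had 0, 0 and 2 reads in KD IN and none in NC IN, and 1, 2 and 4 reads in KD IP against 2, 0 and 2 in NC IP, too few to be tested.

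IGF2BP2, the paralogue that adult tissues also use, had the most reads of the 4 genes over the 12 libraries together. In NC IN its 83 reads were fewer than the 191 of LIN28B and the 87 of IGF2BP3. The IGF2BP2 region named for KD held 38, 37 and 30 reads in KD IN, against 28, 21 and 34 in NC IN, and these groups overlapped. In IP it held 212, 197 and 239 reads in KD, against 149, 151 and 96 in NC, and here all 3 KD libraries were higher. Levels were 35.5 ± 2.99 CPM in KD IN and 31.7 ± 6.71 CPM in NC IN, and 119.9 ± 25.8 CPM in KD IP and 77.8 ± 16.8 CPM in NC IP. The KD over NC ratio was 1.12 in IN by reads (0.832 to 1.51) and 1.53 in IP by the fit (log2 0.62 ± 0.20).

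**Figure D3:**
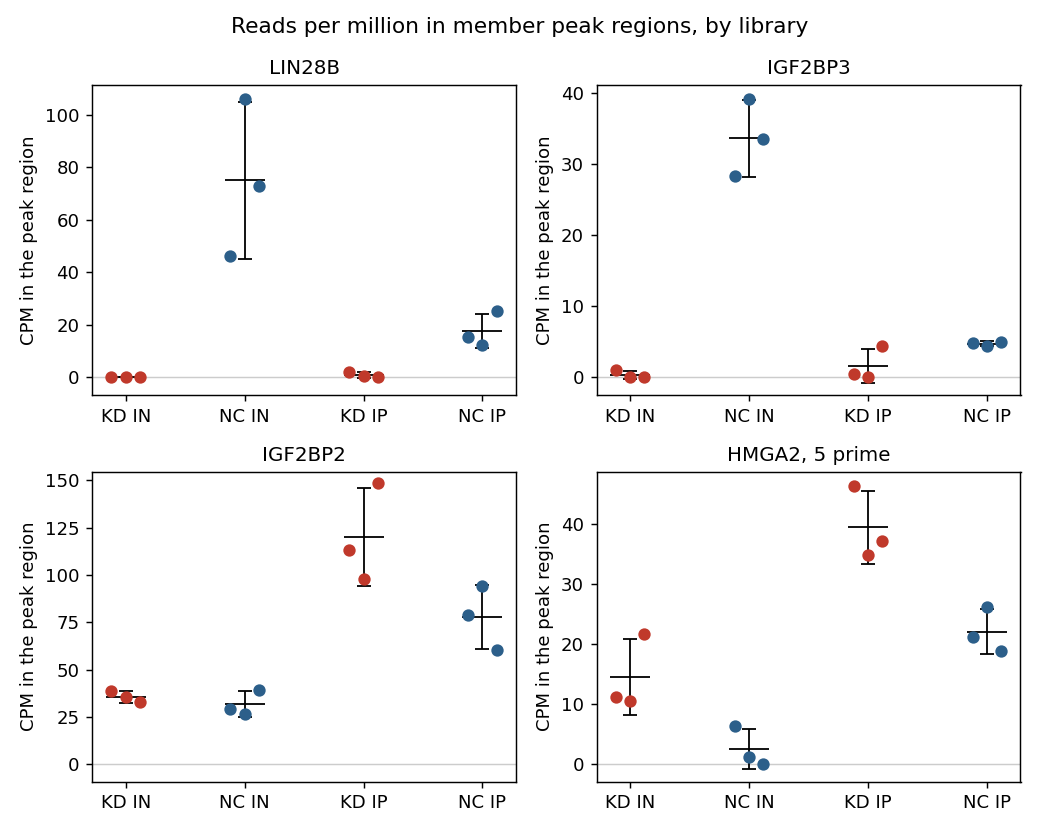
CPM of the member regions in each library (points) with mean ± SD (n = 3), KD left of NC. In IN, LIN28B and IGF2BP3 average 0 and 0.34 CPM in KD against 75.01 and 33.7 CPM in NC, while HMGA2 averages 14.5 CPM in KD against 2.52 CPM in NC.

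Of the 7 member regions, KD and NC libraries did not overlap for 4 in IN (2 higher and 2 lower in KD) and for 6 in IP (4 higher and 2 lower). Over all 5113 tested regions the groups did not overlap for 44.8% in IN (20.2% higher, 24.6% lower in KD) and for 57.9% in IP (29.5% higher, 28.3% lower). The choice of genes used these contrasts, so nothing is read from the counts. Per kilobase of region, KD IN ran from IGF2BP2 (167.6 CPM) through HMGA2 (43.7) and IGF2BP3 (1.6) to LIN28B (0), the last pair overlapping. NC IN ran from LIN28B (619.9 ± 248.6) through IGF2BP3 (159.5 ± 25.8) and IGF2BP2 (149.6 ± 31.7), which overlap, to HMGA2 (7.6 ± 10). In IP the order was IGF2BP2, HMGA2, IGF2BP3 and LIN28B in KD (565.3, 119.4, 7.71 and 7.25 CPM per kilobase, the last pair overlapping), and IGF2BP2, LIN28B, HMGA2 and IGF2BP3 in NC (367.1, 146, 66.7 and 22.4).

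Immunoprecipitation against input asks whether a region is pulled down with the m7G antibody beyond its abundance, relative to the average peak region. edgeR's quasi-likelihood test with Benjamini-Hochberg adjustment over 5113 regions called 44.9% of them in KD (23.5% higher in IP, 21.4% lower) and 46.7% in NC (22.7% higher, 24.0% lower). Of the 6 member regions in the fit, 4 were past the threshold in KD, all higher in IP, and 6 in NC, 4 higher and 2 lower. LIN28B and IGF2BP3 entered the fit only through NC, where they are high. A gene chosen for high NC IN reads is thereby favoured to have a low IP over IN in NC, and one chosen for low NC IN reads a high one, so nothing is read from these counts for LIN28B, IGF2BP3 and HMGA2. IP and IN libraries did not overlap for 4 of the 7 regions in KD, all higher in IP, where 56.6% of tested regions did not overlap (32.1% higher, 24.4% lower). They did not overlap for 6 of 7 in NC, 4 higher and 2 lower, where 57.8% did not (30.3% higher, 27.5% lower). The paired regions of IGF2BP2 and of HMGA2 share most of their bases and reads, so the counts run over fewer places than regions. With library size alone in place of TMM scaling, the median region moved to 0.40 in KD and 0.42 in NC against 0.23 and 0.13 with TMM, and higher calls made up 1462 of 2297 in KD and 1597 of 2375 in NC, against 1200 of 2296 and 1161 of 2389. 

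IGF2BP2 had more IP than IN in both conditions. Its 2 regions were called by the authors as IP over IN peaks, 1 in KD and 1 in NC, so this direction was favoured in advance. In KD its IP libraries, at 98.1 to 148.4 CPM, all lay above its IN libraries, at 32.6 to 38.6 CPM, and IP was 3.36-fold higher (log2 1.75 ± 0.23, adjusted p = 1.2e-06). In NC the IP libraries, at 60.4 to 94 CPM, also lay above the IN libraries, at 26.5 to 39.3 CPM, and IP was 2.45-fold higher (1.29 ± 0.24, adjusted p = 0.00012). The overlapping region named for NC gave 1.82 ± 0.24 in KD and 1.37 ± 0.25 in NC. These regions lie at a listed transcript start. Whether the m7G pulled down there was internal or at the 5′ end of the mRNA was not tested.

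HMGA2's 5′ region had more IP than IN in both conditions. In KD, IP was at 46.4, 34.9 and 37.2 CPM and IN at 11.2, 10.5 and 21.8 CPM, 2.74-fold (log2 1.45 ± 0.43, SE). In NC, IP was at 21.2, 26.1 and 18.9 CPM and IN at 6.28, 1.26 and 0 CPM, 8.06-fold (3.01 ± 0.60). IP and IN libraries did not overlap in either. The NC value rests on the 7 NC IN reads and was 5.04 on the log2 scale without NC IN replicate 1. The region named for KD gave 1.35 ± 0.43 in KD and 2.96 ± 0.60 in NC.

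LIN28B and IGF2BP3 had less IP than IN in NC. LIN28B had 15.4, 12.4 and 25.2 CPM in NC IP, against 46.1, 106.1 and 72.8 CPM in NC IN, 4.22-fold lower in IP (log2 -2.08 ± 0.44). IGF2BP3 had 4.77, 4.36 and 5.04 CPM in NC IP, against 28.3, 39.2 and 33.5 CPM in NC IN, 6.99-fold lower in IP (-2.81 ± 0.64). The NC IP libraries of both genes all lay below their NC IN libraries. The choice of both genes through their NC IN reads favours this, so nothing is read from it. In KD neither could be measured well. LIN28B had 5 IP reads and no IN read, and IGF2BP3 had 8 IP reads and 1 IN read, a ratio of 4.3 with an interval of 0.576 to 190.6. Without KD IP replicate 3 the fitted log2 value of IGF2BP3 in KD was -0.28 in place of 1.89, so its direction rests on that library.

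Position in the gene moves with enrichment across all regions, and the members' places are given beside it. Regions in the first 10% of gene bodies had a median log2 IP over IN of 0.51 in KD and 0.49 in NC, and 29.0% were called higher in each. Between 10% and 90%, where LIN28B lies, the medians were -0.03 in KD and -0.21 in NC, with 34.3% called lower in NC. In the last 10%, where IGF2BP3 lies, they were 0.05 in KD and -0.08 in NC. The part of position in the members' values was not tested.

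**Figure D4:**
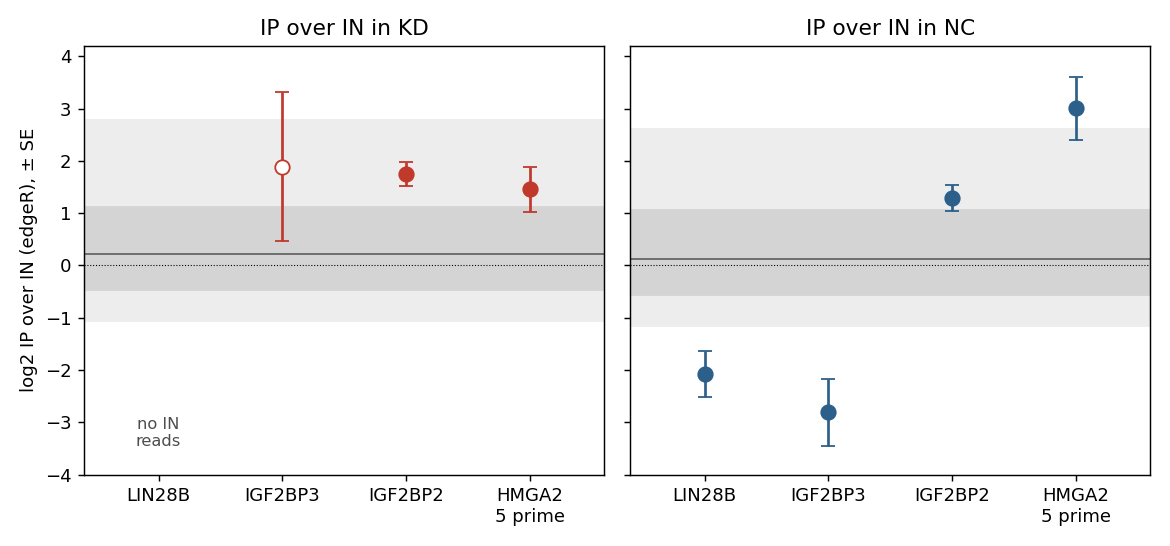
log2 IP over IN of each member region ± SE in KD and NC, with the quartiles (dark band), 5th to 95th percentile (light band) and median (line) of the tested regions. IGF2BP2 and HMGA2 lie above the medians of 0.23 (KD) and 0.13 (NC), LIN28B and IGF2BP3 in NC lie at -2.08 and -2.81, the open marker for IGF2BP3 in KD rests on 1 IN read, and LIN28B in KD is not drawn.

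The change in enrichment is IP over IN in KD against NC, on the log2 scale. It was 0.46 ± 0.34 for the IGF2BP2 region named for KD and -1.56 ± 0.78 for the HMGA2 5′ region named for NC. For IGF2BP3 it was 4.69 ± 1.52, resting on 1 KD IN read, and for LIN28B it was not measured. edgeR called 0.0% of all regions for this change, 0 of 5113, with 610 at an unadjusted p under 0.05. With a replicate block, which pairs IP and IN of the same number, 16 regions were called. The authors' deposited table gives a log2 change of 0.34 (adjusted p 0.89) for the same IGF2BP2 region. It gives -1.80 (0.57) for the same HMGA2 region, 5.02 (0.047) for IGF2BP3 and 10.07 (0.22) for LIN28B.

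The authors' deposited table names the LIN28B and IGF2BP3 regions for KD alone, although NC IP held more reads of both. Its fold enrichment for these peaks is 11.1 for LIN28B (adjusted p of the peak 0.16) and 13.6 for IGF2BP3 (0.019), against 9.37 and 7 for the IGF2BP2 regions and 6.34, 22.1 and 11.1 for the HMGA2 regions. Of 5008 peaks named for KD, 1955 (39.0%) had the higher IP level in NC, and 287 (5.73%) were at least 3-fold higher there.

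The list for let-7 processing and turnover held 23 genes, of which 13 had a peak and 9 were tested. It includes AGO and TNRC6 genes, which act in silencing and not in processing, and TNRC6A had 2 regions called lower in KD IN. Of 20 tested regions 16 were lower and 1 higher in KD IN, with a median log2 of -1.10 against -0.01 over all regions, where 39.8% were called (17.9% higher, 21.9% lower; in IP 41.0%, 20.9% higher and 20.1% lower). HNRNPA1, which binds pri-let-7a, held 7 of the lower regions, and without it 9 of 13 were lower and 1 higher. DIS3L2, the exonuclease that degrades uridylated pre-let-7, had 1 read in KD IN against 38 in NC IN. DGCR8, the partner of Drosha, fell (-0.65 ± 0.15, edgeR adjusted p = 0.00089), and TUT7, which uridylates pre-let-7, rose (1.06 ± 0.13, adjusted p = 2.5e-07). HNRNPA1 itself (-1.39 ± 0.09, adjusted p = 1.5e-11) has near-identical pseudogenes and its count is uncertain.

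Known let-7 targets came from a list of 52 genes, 17 with a peak and 8 tested. By gene 2 were higher and 3 lower in KD IN. Of 16 tested regions 5 were higher and 5 lower, 3 of the lower in CCND2, where 17.9% and 21.9% of all regions were. The higher ones include all 4 regions of CCND1, a cyclin of the G1 phase (163.5, 139.6 and 204.4 CPM in KD IN against 50.3, 69.5 and 72.8 in NC IN, log2 1.40 ± 0.20, edgeR adjusted p = 5.1e-06). The lower ones belong to CDC25A, a phosphatase that activates cyclin-dependent kinases (-2.79 ± 0.37, adjusted p = 1.1e-06), to ARID3B (-3.04 ± 0.72, adjusted p = 0.0015) and to CCND2, another G1 cyclin, with 2 reads in KD IN against 126 in NC IN.

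Partners and client mRNAs of the IGF2BP proteins came from a list of 29 genes, 18 with a peak and 13 tested. Of 41 tested regions 19 were higher and 8 lower in KD IN, where 17.9% and 21.9% of all regions were. By gene 7 were higher and 3 lower. SYNCRIP (log2 0.34 to 0.40) held 8 of the higher regions and CCND1, also a let-7 target above, held 4. ACTB (0.79 ± 0.09, edgeR adjusted p = 7.9e-08) and YBX1 (1.03 ± 0.11, 3.7e-08) were higher and SERBP1 (-1.31 ± 0.09, 4.8e-11) was lower. Among HMGB, HMGN and HMGXB genes, 9 of 11 tested regions, from 4 of 6 tested genes, were lower in KD IN. None was higher, the opposite of HMGA2. HMGA1, the only HMGA gene on that list, had no peak. HMGB2, a chromatin protein of dividing cells, was at 1030.0, 987.5 and 1195 CPM in KD IN against 5299, 5112 and 5939 in NC IN (-2.35 ± 0.10, adjusted p = 2.5e-15). HMGB3 (-1.81 ± 0.12, 1.5e-11), HMGN2 (-1.24 ± 0.11, 1.9e-09) and HMGB1 (-0.97 ± 0.18, 0.00015) were lower too. ACTB, YBX1, HMGN2 and HMGB1 have processed pseudogenes, so their counts are uncertain. The list of other oncofetal genes held 24, of which 7 had a peak and 3 were tested. None of their 6 tested regions was called in KD IN, where 39.8% of all regions were. The log2 values were -0.51 for TPBG, -1.79 for PEG10 and -0.03 to 0.45 for the 4 regions of SOX4. So few genes cannot show whether other oncofetal genes differed.

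Across the 12 libraries the regions most like LIN28B in log2 CPM were those of PNMA8A (Pearson r 0.987), HOXC9 (0.983), which is on the HEK293 marker list, and AKAP12 (0.982). PNMA8A averaged 0 CPM in KD IN and 90.8 CPM in NC IN. For IGF2BP3 they were SMO (0.975), CCND2 (0.966) and CBY1 (0.952), for IGF2BP2 FAM111A (0.972), ZNF787 (0.967) and FCGRT (0.967), and for HMGA2 TMTC2 (0.957), NFAM1 (0.946) and CTSD (0.943). These values describe libraries that share 4 groups and carry no p.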

How the data were processed

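m7G meRIP-seq libraries of KD and NC THP-1 cells, IP and IN, were analysed from the authors' deposited table of peaks. Per the submitters' processing notes, trimming was by fastp 0.23.4 and the genome was GRCh38. The aligner, peak caller and counter are not given in the sources used here. Counts in the authors' deposited table are whole, unscaled read numbers of each region. The authors also deposited a fold enrichment ratio, p-values and a log2 change for each peak. Peaks were given gene names by overlap with RefSeq bodies, whatever the strand. These were modelled by edgeR 4.0.16 under R 4.3.3 (filterByExpr with a minimum count of 10 and total of 15, TMM scaling, quasi-likelihood test, Benjamini-Hochberg adjusted p under 0.05) on all 4 groups together. In that fit 5113 regions passed, among them 6 of the 7 members. CPM used the TMM-scaled library sizes. IP and IN libraries of the same number were not paired in the main fit. Their deviations correlated at -0.02 to 0.07, which cannot show whether they share a source. DESeq2 1.42.0, library size alone, other filters, a replicate block and leaving out each library were tried. Member genes and lists were chosen with earlier results of these data known. For each list the up to 4 called genes of smallest p in KD over NC in IN were named (1 region per gene), and for each member the 3 genes of highest correlation. Other marker genes are named for the check of the libraries.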

Additional observations from a re-analysis of the deposited data

How the results depend on the processing

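Under the planned settings 120 summary values stayed within the limits set for them, and 8 did not, all of them counts. The number of regions with a changed enrichment was 0 in edgeR's fit, against 21 with DESeq2 and 45 with no filter on low counts, and 0 to 1 when each library was left out in turn. Of the members' 7 peaks, 4 were shared between the KD and NC sets at 1 base or at 50 percent of overlap, and 0 when only the upper 50 percent of each set by the authors' fold was kept, since fewer peaks remain. Among the members' own values 493 stayed, 14 moved and 3 weakened. The HMGA2 region named for KD passed to the other side of the threshold for IP over IN in KD in 2 fits, and the IGF2BP3 value in KD changed sign to -0.28 without KD IP replicate 3. The number of members past the threshold for IP over IN was 3 to 4 in KD and 6 in NC when each library was left out. Such counts include LIN28B, IGF2BP3 and HMGA2, for which this comparison is a description, so no stability is read from them. For IGF2BP2, the region named for KD had an adjusted p of at most 2.4e-05 in KD and 0.0013 in NC over the edgeR and DESeq2 fits. All these fits use a region already called as a peak, which favours a low p. Whether libraries of the same number share a source was not stated. With a replicate block, 2225 and 2280 regions were called for IP over IN in KD and NC, against 2296 and 2389 without it, and 1987 and 2002 for KD over NC in IN and IP, against 2035 and 2097; 16 changed enrichment, and 4 and 6 members were past the threshold, as without the block. The cause of the other shifts was not tested. Reads per region limit LIN28B and IGF2BP3 in KD, where IN holds 0 and 1 read, and HMGA2 in NC IN, with 7.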
